A study of Schizosaccharomyces pombe with 97 samples.

Results

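The 10 genes described here encode the enzymes with which fission yeast (*Schizosaccharomyces pombe*) makes fatty acids, packs them into storage lipids and releases them again. They were taken by name from the deposited count table, which lists 7014 genes, and all 10 were among the 6608 genes that had enough reads to be tested. RNA was sequenced from cells growing in minimal medium (T0) and after nitrogen had been withdrawn for 1 day (T1D), for 1 week (T1W) or for 2 weeks (T2W), a treatment that stops division and leads into quiescence (G0). The mutants were *hht2∆* (a histone H3 gene), *pht1∆* (the histone variant H2A.Z), *iec1∆*, *arp42∆* and *ies2∆* (genes studied as parts of the Ino80 chromatin remodelling complex) and *asp1∆* (an inositol polyphosphate kinase), and they were set against the wild type *smt0*. Each mutant carried a *kanMX4* deletion from the Bioneer collection and had been made prototrophic by a cross to the *mat1-M smt0* wild type, so all 7 strains grew without added nutrients for their markers. There were 3 replicate cultures, lettered A to C, for each strain and time, and no *ies2∆* sample at T2W, which gave 81 libraries in 27 groups. A culture gave its T0 sample before the rest of it was starved, so samples of a strain at different times may come from the same culture.

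Fatty acid synthesis starts from acetyl-CoA, which acetyl-CoA carboxylase turns into malonyl-CoA, and fatty acid synthase then builds the chain from malonyl-CoA. The chains go into membranes, or are joined to diacylglycerol or to sterols as triacylglycerol and steryl esters, which are kept in lipid droplets. Yeast cells that have sugar but no nitrogen are known to fill lipid droplets, and lipases open this store when chains are needed again. *cut6* encodes acetyl-CoA carboxylase, *fas1* the beta subunit and *fas2* the alpha subunit of fatty acid synthase. *plh1* encodes the acyltransferase that makes triacylglycerol with a phospholipid as the acyl donor, and *dga1* the acyltransferase that uses acyl-CoA. *are1* and *are2* encode sterol acyltransferases, and *ptl1*, *ptl2* and *ptl3* encode triacylglycerol lipases.

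In the ASM294v2 build used for counting, 6 of the 10 genes lie on chromosome I, namely *cut6* (SPAC56E4.04c, I:1245716-1253559, minus strand), *fas1* (SPAC926.09c, I:3900130-3907056, minus strand), *fas2* (SPAC4A8.11c, I:2566866-2572625, minus strand), *are1* (SPAC13G7.05, I:2305136-2307359, plus strand), *ptl2* (SPAC1786.01c, I:3028006-3030516, minus strand) and *ptl3* (SPAC1A6.05c, I:1079635-1081713, minus strand). *plh1* (SPBC776.14, II:3204345-3208235, plus strand) lies on chromosome II. Chromosome III holds *dga1* (SPCC1235.15, III:215297-217099, plus strand), *are2* (SPCP1E11.05c, III:2398339-2400840, minus strand) and *ptl1* (SPCC1450.16c, III:1763151-1765309, minus strand). *plh1* shares 1458 exon bases, or 41.9% of its exon length, with *kgd2* on the opposite strand. The sources used here do not state whether the counting used strand, so reads of *plh1* and *kgd2* on these bases may not have been told apart, and the values of *plh1* are uncertain for this reason. *ptl2* shares 6.61%, *ptl1* 3.32% and *cut6* 1.69% of exon length with a gene on the opposite strand.

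The stretch before the transcript start was compared among the 10 genes because the 3 fatty acid synthesis genes had similar patterns over the 27 groups in what follows. GTGGGAA, the core letters bound by CSL-family factors, a family that in *S. pombe* includes Cbf11, a known activator of *cut6*, was searched on both strands in the 300 bases before each RefSeq gene start (ASM294v3). It was present before 74 of 5112 protein-coding genes (1.45%), and among the 10 genes before *cut6*, *fas1*, *fas2* and *ptl1*. The sequences of the synthesis genes follow on the strand of the gene, read 5′ to 3′, with the match in capitals. In *cut6* it lies 110 to 104 bases before the start and in *fas1* 38 to 32, while in *fas2* it is on the other strand at 32 to 26 and reads as its reverse complement.
*cut6* (I:1253571-1253627): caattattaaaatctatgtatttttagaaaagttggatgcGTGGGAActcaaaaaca
*fas1* (I:3907076-3907132): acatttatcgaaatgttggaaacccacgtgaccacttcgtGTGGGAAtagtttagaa
*fas2* (I:2572634-2572690): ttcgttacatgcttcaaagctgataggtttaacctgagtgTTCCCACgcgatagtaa

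In *ptl1* the match lay 19 to 13 bases before the RefSeq start, also on the other strand. The related letters GTGAGAA were found before *are1* (3.09% of all genes). GATAAG, the core of GATA-factor sites, was found before *fas1*, *plh1* and *are2* (11.7% of all genes), and TGACGT, the core of sites for CRE-binding factors, before *dga1*, *are1*, *ptl2* and *ptl3* (6.03% of all genes). CCCCTC, the stress response element, was before 1.94% of all genes and before none of the 10. The matches of different motifs did not overlap in the 10 genes, and a match is a description of the sequence only.

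Gene totals ran between 1980570 and 18992894 reads per library and ERCC spike-in totals between 5678 and 3003773, and the lowest count of any of the 10 genes in any library was 33. The deleted gene was checked in each mutant against its mean in *smt0* at the same time. It was at 3.37% to 8.92% in the 12 *asp1∆* libraries. It was below 1% in 7 of 12 libraries labelled *hht2∆* and above 10% in 5, which were replicate A at all 4 times (15.1% to 36.6%) and replicate C at T2W (14.6%). In the 9 libraries labelled *ies2∆* it reached 217% in T0 C, 37.3% in T1D B and 10.1% in T1D A. These 8 libraries were taken as in doubt against their labels, by a limit of 10% set after the values were seen, just above which *ies2∆* T1D A lies. Calls in *hht2∆* and *ies2∆* are given with and without them. Without them *hht2∆* T2W and *ies2∆* T1D each hold 1 library, which is then assumed to vary as the other groups do, so those tests have no replicate of their own. In *pht1∆*, *iec1∆* and *arp42∆* the medians were 74.35%, 78.75% and 64.8%, but the counted exons of these genes extend far beyond the coding sequence, so the counts do not check those labels. The *ies2∆* libraries formed a second batch without a wild type, and in them the batch cannot be told apart from the deletion.

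Levels and changes are given on a pair of scales. The relative scale divides by the total gene count with a TMM factor, which takes out any change shared by all genes, and levels on it are CPM divided by the exon length in kilobases (CPM per kb). The ERCC scale divides by the spike-in counts and so keeps a change shared by all genes. By the paper's methods the spike-ins were added in proportion to the vegetative cell number of each culture. Where the cells in a sample differed from that number, fewer cells and less RNA per cell cannot be told apart on it. Changes are log2 differences with their standard error, from edgeR's quasi-likelihood test with Benjamini-Hochberg adjustment over the 6608 genes, and a gene was called at an adjusted p under 0.05. The p-values rest on the spread between replicate cultures. This spread was estimated over all 27 groups in one fit, not only in the groups compared.

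In growing *smt0* cells the 3 synthesis genes stood far above the rest. At T0 the mean levels were 528 CPM per kb for *fas1*, 437 for *cut6* and 339 for *fas2*, and the next was *ptl2* at 102. Then came *dga1* (86.8), *are2* (73.0), *ptl1* (55.6), *ptl3* (41.6), *plh1* (40.2) and *are1* (34.2). The cultures of neighbours in this order did not overlap from *fas1* down to *dga1*, and overlapped for each pair from *dga1* on. The 10 genes together took 0.906% to 0.909% of the gene counts at T0 and 0.436% to 0.616% at T2W.

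**Figure D1:**
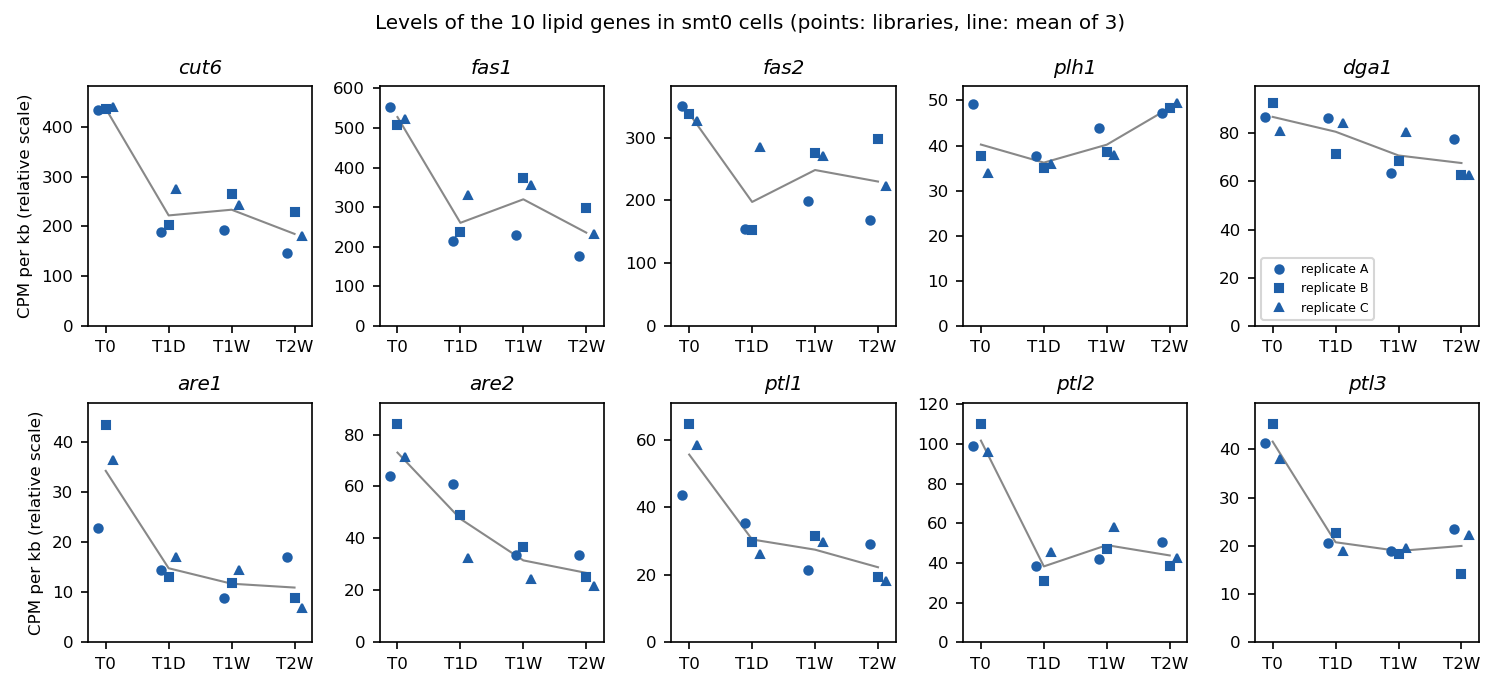
Levels of the 10 genes in *smt0* at T0, T1D, T1W and T2W, in CPM per kb on the relative scale, 1 panel per gene and 1 point per culture (A circle, B square, C triangle). Every T1D culture lies below every T0 culture except for *plh1* and *dga1*, whose cultures overlap between these times. The share of all genes without overlap was not computed.

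After 1 day without nitrogen, 8 of the 10 genes were lower in *smt0* than at T0 on the relative scale, where 26.9% of all genes were lower, and none was higher. Their median change was -0.92 against 0.02 for all genes. At T1W 8 of 10 were lower (30.5% of all genes) and at T2W again 8 of 10 (32.6% of all genes), with medians of -0.96 and -1.19 against -0.02 and -0.03. The genes that were not called were *plh1* and *dga1* at T1D, and *plh1* and *fas2* at T1W and T2W. None of the 10 was called between T1W and T1D by edgeR (16.0% of all genes, 1 of the 10 at an unadjusted p under 0.05) or between T2W and T1W (0.333% of all genes, 0 of the 10 unadjusted).

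The synthesis genes fell together. *cut6* read 434.5, 436 and 440.1 CPM per kb in the T0 cultures, 189, 202 and 275 at T1D, 192, 266 and 242 at T1W, then 146, 228 and 181 at T2W. *fas1* read 553, 507 and 523 at T0, 214, 236 and 331 at T1D, 230.0, 373 and 357 at T1W, then 178, 299 and 231 at T2W. Every later culture of both genes lay below every T0 culture. *cut6* fell by 0.98 at T1D (SE 0.26, adjusted p = 0.001335), by 0.90 at T1W (SE 0.26, adjusted p = 0.002413) and by 1.24 at T2W (SE 0.26, adjusted p = 4.674e-05). *fas1* fell by 1.02 at T1D (SE 0.25, adjusted p = 0.0004521), by 0.72 at T1W (SE 0.25, adjusted p = 0.01007) and by 1.16 at T2W (SE 0.25, adjusted p = 5.436e-05). The call of *fas1* at T1W was lost without *smt0* T1W A. *fas2* read 351, 338 and 327 at T0, 155, 152 and 285 at T1D, 199, 276 and 271 at T1W, then 169, 298 and 224 at T2W. It fell by 0.78 at T1D (SE 0.28, adjusted p = 0.01595), a call lost without T1D A or T1D B, and its later values of -0.45 and -0.56 were not called.

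The genes of triacylglycerol synthesis moved least. *plh1* read 49.1, 37.7 and 33.9 CPM per kb at T0, 37.6, 35.0 and 36.0 at T1D, 44.0, 38.7 and 37.9 at T1W, then 47.3, 48.4 and 49.4 at T2W. Its cultures overlapped with T0 at each time, and its changes were -0.15 (SE 0.16) at T1D, 0.00 (SE 0.16) at T1W and 0.27 (SE 0.16) at T2W, none of them called. *dga1* read 86.8, 92.5 and 81.1 at T0, 86.3, 71.2 and 84.4 at T1D, 63.6, 68.3 and 80.4 at T1W, then 77.4, 62.9 and 62.6 at T2W. It fell by 0.29 at T1W (SE 0.12, adjusted p = 0.03634) and by 0.36 at T2W (SE 0.12, adjusted p = 0.009924), and each of these calls was lost when any of 3 libraries was left out, *smt0* T0 B among them.

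The steryl ester genes were lower at each time as well. *are1* read 22.9, 43.3 and 36.4 CPM per kb at T0, 14.3, 13.0 and 17.0 at T1D, 8.83, 11.8 and 14.5 at T1W, then 16.9, 8.95 and 6.93 at T2W. It fell by 1.22 at T1D (SE 0.26, adjusted p = 5.043e-05), by 1.54 at T1W (SE 0.26, adjusted p = 8.662e-07) and by 1.63 at T2W (SE 0.27, adjusted p = 3.242e-07). These are the largest relative falls among the 10 genes at T1W and T2W. *are2* read 64.0, 84.0 and 71.2 at T0, 61.1, 49.1 and 32.4 at T1D, 33.6, 36.8 and 24.3 at T1W, then 33.7, 25.0 and 21.6 at T2W. It fell by 0.61 at T1D (SE 0.26, adjusted p = 0.04369), a call lost without any of 4 libraries (*smt0* T0 B, T0 C, T1D B or T1D C). At T1W it fell by 1.22 (SE 0.27, adjusted p = 9.33e-05) and at T2W by 1.45 (SE 0.27, adjusted p = 5.876e-06).

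All 3 lipase genes fell. *ptl2* read 99.1, 110.0 and 95.7 CPM per kb at T0, 38.2, 31.0 and 45.6 at T1D, 41.9, 47.1 and 58.0 at T1W, then 50.5, 38.5 and 42.4 at T2W. It fell by 1.41 at T1D (SE 0.19, adjusted p = 3.028e-09), the largest relative fall among the 10 genes at that time, by 1.05 at T1W (SE 0.18, adjusted p = 1.629e-06) and by 1.21 at T2W (SE 0.19, adjusted p = 7.502e-08). *ptl1* read 43.7, 64.7 and 58.4 at T0, 35.4, 29.8 and 26.2 at T1D, 21.3, 31.4 and 29.7 at T1W, then 29.1, 19.4 and 18.3 at T2W. Its falls were 0.86, 1.02 and 1.32 at the 3 times, past the threshold at each with the highest adjusted p at 0.0001458, and every later culture stood below every T0 culture. *ptl3* read 41.4, 45.4 and 38.1 at T0, 20.6, 22.7 and 18.99 at T1D, 18.9, 18.4 and 19.6 at T1W, then 23.5, 14.2 and 22.3 at T2W, and its log2 changes of -0.999, -1.13 and -1.06 were called at each time with the highest adjusted p at 9.529e-06.

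On the ERCC scale the median of these genes was below that of all genes at each time, and by T1W nearly all genes had fallen. At T1D 7 of the 10 were lower (21.4% of all genes), with a median of -2.03 against -1.05 for all genes, and *plh1* (-1.18), *dga1* (-1.13) and *are2* (-1.49) were not called. This count rested on single libraries, since it was 0 without *smt0* T1D B or without T1D C and 10 without T1D A. At T1W all 10 were lower (97.3% of all genes) and at T2W all 10 (96.1% of all genes), with medians of -6.29 and -6.07 against -5.30 and -4.94 for all genes. *are1* fell most at T1W, with -7.01 (SE 0.84, adjusted p = 1.655e-15), and *plh1* fell least, with -5.17 (SE 0.77, adjusted p = 4.647e-11). *cut6* fell by 6.24 at T1W (SE 0.85, adjusted p = 7.328e-13), that is to levels 75.5-fold lower.

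**Figure D2:**
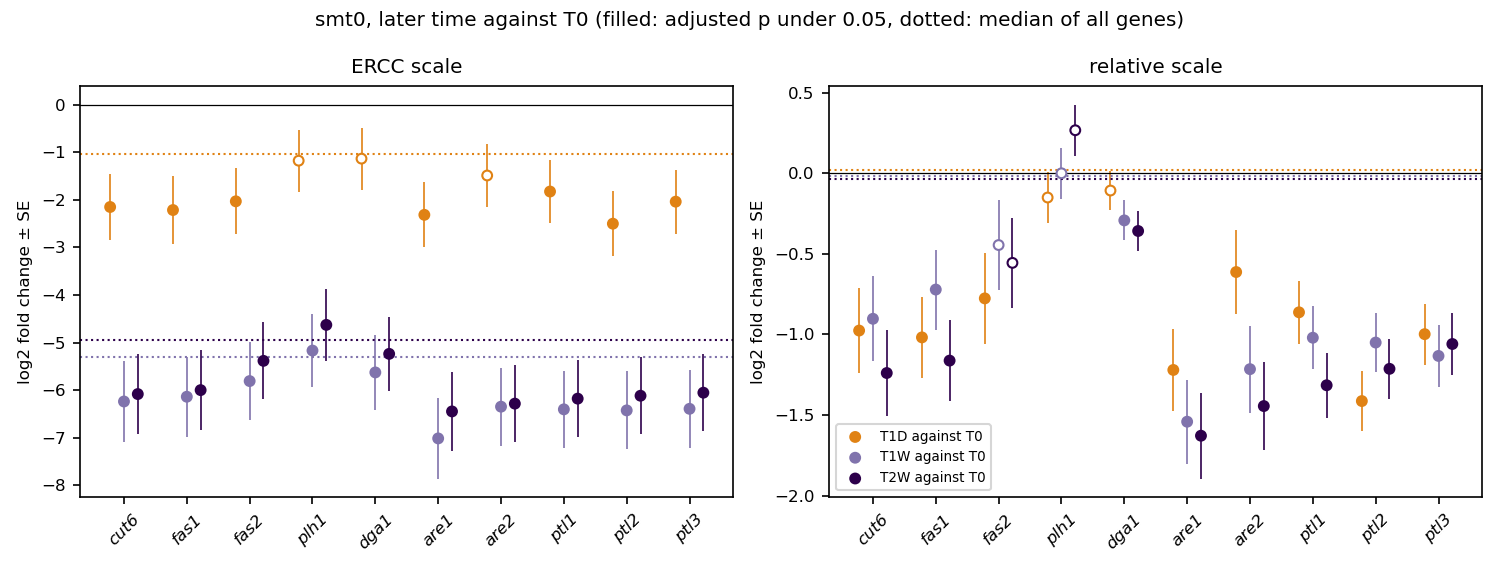
Log2 change with its standard error (bars) of the 10 genes in *smt0* at T1D, T1W and T2W against T0, on the ERCC scale and on the relative scale, with filled points for called genes and dotted lines for the median of all tested genes. On the relative scale *plh1* and *dga1* sit closest to 0 at each time, and on the ERCC scale all 10 genes lie at -4.63 or lower at T1W and T2W.

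The balance of the subunits of fatty acid synthase was read as the ratio of *fas1* to *fas2* per kb. In *smt0* it was 1.56 ± 0.054 at T0 and 1.36 ± 0.195 at T1D, then 1.28 ± 0.103 at T1W and finally 1.03 ± 0.026 at T2W (SD, n = 3), and the T2W cultures did not overlap with any T0 culture. In *asp1∆* the ratio was 1.75 ± 0.016 at T1W and 1.77 ± 0.049 at T2W, and in the libraries labelled *hht2∆* 1.76 ± 0.386 at T2W, where A (2.16) and C (1.74) are in doubt and B was at 1.39. In *ies2∆* at T1D it was 1.03 ± 0.2, with A (1.15) and B (0.802) in doubt and C at 1.15. These ratios are a description, since 3 cultures against 3 cannot reach an exact permutation p below 0.10. This ratio is the same on both scales.

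**Figure D3:**
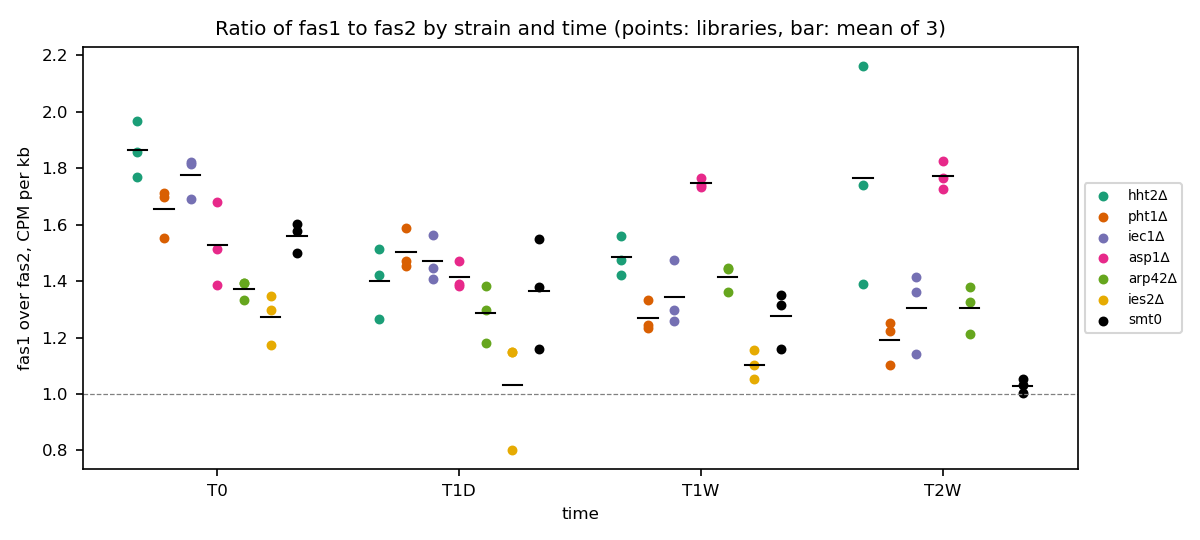
Ratio of *fas1* to *fas2* in CPM per kb for each mutant and for *smt0* at T0, T1D, T1W and T2W, 1 point per culture. In *smt0* the ratio at T2W lies between 1.00 and 1.05, below its T0 cultures at 1.5 to 1.6, and all 3 *asp1∆* cultures at T2W lie between 1.73 and 1.82.

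The mutants were then set against *smt0* at the same time. At each time all mutants share the same 3 *smt0* cultures, so calls of a gene in several mutants are not independent. On the relative scale 5 of 60 member tests were lower at T0 (8.33%, against 5.92% of all gene tests). At T1D 6 were higher (10%, against 9.23%), at T1W 5 were higher and 6 lower (8.33% and 10%, against 6.97% and 7.63%), and at T2W 9 of 50 were higher and 10 lower (18% and 20%, against 17.3% and 16.3%). These shares were close to those of all genes, so the counts alone say nothing particular about the 10 genes. The calls were not spread evenly over the genes: at the 4 times *ptl2* had 8 and *ptl1* 7, the synthesis genes 4 (*cut6*), 3 (*fas1*) and 4 (*fas2*), *plh1* 6, and *are1*, *are2*, *dga1* and *ptl3* 2 or 3 each.

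**Figure D4:**
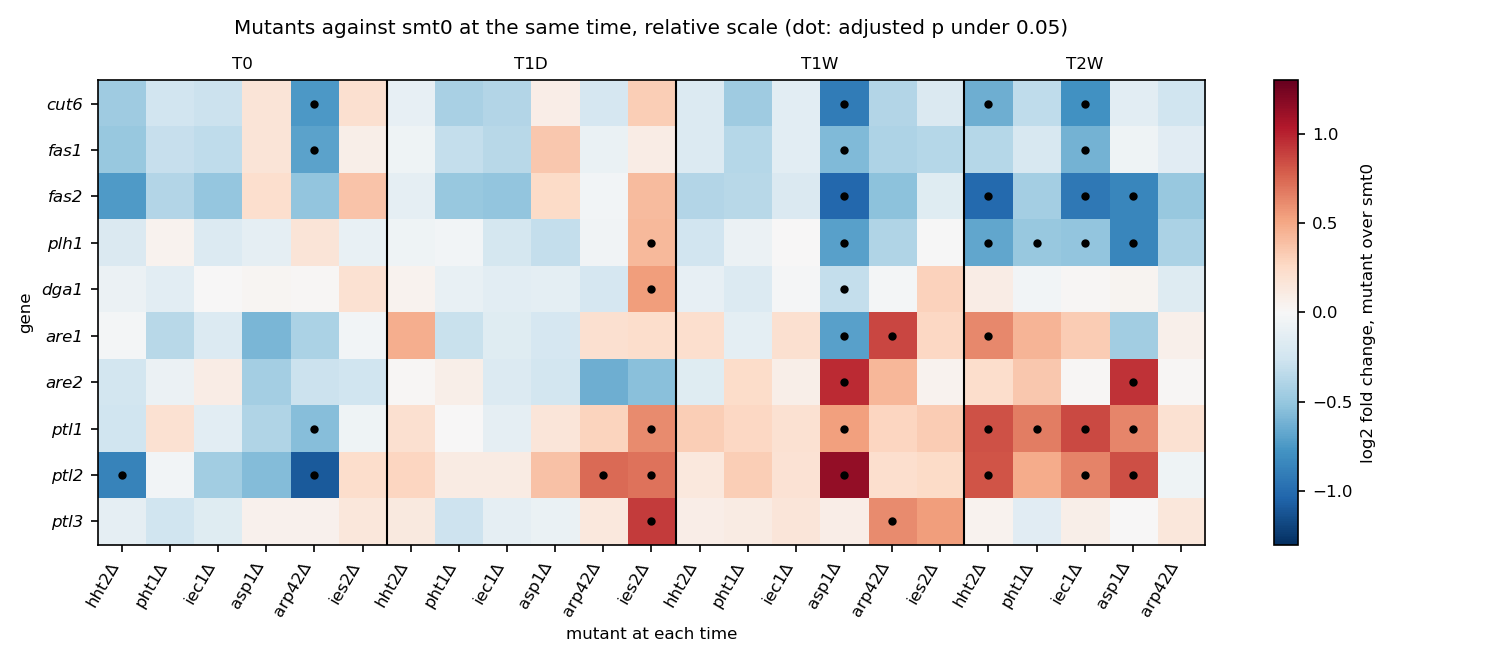
Log2 change of the 10 genes in each mutant against *smt0* at T0, T1D, T1W and T2W on the relative scale, with a dot in the cells of called genes. *ptl2* is lower in *hht2∆* and *arp42∆* at T0 (-0.87 and -1.09) and higher in *asp1∆* at T1W and T2W (1.14 and 0.84), while *fas2* in *asp1∆* is lower at both of these times (-1.02 and -0.85).

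In growing cells *ptl2* was lower in *arp42∆* and in the libraries labelled *hht2∆*. In *arp42∆* it read 42.4, 49.5 and 51.2 CPM per kb at T0, against 99.1, 110.0 and 95.7 in *smt0*, and it was lower by a log2 change of -1.09 (SE 0.18, adjusted p = 1.26e-05). The groups did not overlap, and the call held when any single library was left out. In *arp42∆* 4 of the 10 genes were lower at T0 (10.8% of all genes), the others being *cut6* (-0.75, SE 0.26, adjusted p = 0.03397), *fas1* (-0.70, SE 0.25, adjusted p = 0.03757) and *ptl1* (-0.55, SE 0.19, adjusted p = 0.03259). Each of these 3 calls was lost when any of 4 to 6 of the 6 libraries was left out. In the libraries labelled *hht2∆* *ptl2* read 54.6, 46.7 and 65.9 at T0, and its change of -0.87 (SE 0.18, adjusted p = 0.00212) was the only call of the 10 genes (2.59% of all genes lower). It was lost without *hht2∆* T0 B and was -0.83 (adjusted p = 0.006654) without the libraries in doubt, where *fas2* was called as well (-0.85, adjusted p = 0.02561). On the ERCC scale none of the 60 member tests at T0 was called by edgeR (0.177% of all gene tests higher, 0.439% lower), 6 were lower at an unadjusted p under 0.05, and DESeq2 called 1.

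At T1D *ptl2* was higher in *arp42∆* than in *smt0*. In *arp42∆* it read 70.0, 57.4 and 62.7 CPM per kb, against 38.2, 31.0 and 45.6 in *smt0*, higher by 0.73 on the relative scale (SE 0.18, adjusted p = 0.001677). It was the only gene of the 10 called there (14.7% of all genes higher), although on the ERCC scale it fell by 5.68 (SE 0.79, adjusted p = 1.007e-12) with nearly all other genes. Against its own T0, *ptl2* in *arp42∆* was higher at T1D by 0.41 on the relative scale (SE 0.18, adjusted p = 0.04738), whereas on the ERCC scale it fell by 6.17. The call of 0.41 was lost without *arp42∆* T0 A or T1D A and with either replicate block (highest adjusted p 0.05651 with a block). The difference between this change and that of *smt0* was 1.82 (SE 0.26, adjusted p = 2.56e-07), and it held when any of the 12 libraries was left out.

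The change from T0 to T1D was also compared with that of *smt0* in the other mutants. Over the 60 member tests 4 were higher (6.67%, against 3.61% of all gene tests), and all 4 belonged to the lipases *ptl2* and *ptl1*. All mutants were compared with the same *smt0* cultures, so these calls are not independent, and without *smt0* T1D B 2 tests were called. In *asp1∆* *ptl2* read 48.5, 50.7 and 50.2 CPM per kb at T1D, against 76.7, 67.2 and 61.7 at T0, and the difference of its change from that of *smt0* was 0.95 (SE 0.26, adjusted p = 0.01545), lost without *asp1∆* T0 C or *smt0* T1D B. In the libraries labelled *hht2∆* the difference was 1.14 (SE 0.26, adjusted p = 0.01082), and it was 0.93 (adjusted p = 0.1215) without the libraries in doubt. *ptl1* in *arp42∆* read 38.5, 40.7 and 33.1 at T1D, against 33.0, 40.3 and 40.4 at T0, and the difference of its change from that of *smt0* was 0.84 (SE 0.27, adjusted p = 0.01954, or 0.05216 without *arp42∆* T1D B). With ERCC scaling the same differences had the opposite sign in *arp42∆* (-3.67 for *ptl2*, -4.84 for *ptl1*) and in *asp1∆* (-3.59 for *ptl2*), and were called lower there.

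**Figure D5:**
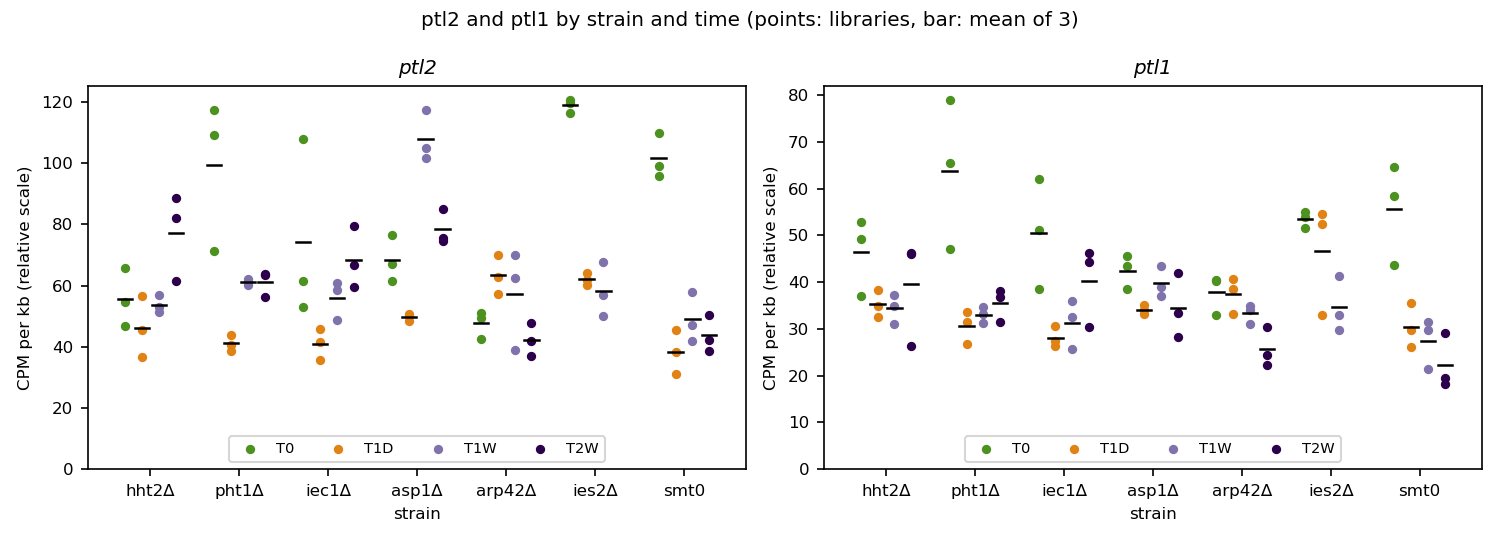
Levels of *ptl2* and *ptl1* in CPM per kb on the relative scale for each mutant and *smt0* at T0, T1D, T1W and T2W, 1 point per culture. The 3 *arp42∆* cultures of *ptl2* lie between 42.4 and 51.2 at T0 and between 57.4 and 70.0 at T1D, and the 3 *smt0* cultures lie between 95.7 and 110.0 at T0 and between 31.0 and 45.6 at T1D.

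Most of these genes were lower at T1D than at T0 in the mutants too. Over the 6 mutants 36 of 60 member tests were lower on the relative scale (60%, against 28.8% of all gene tests) and 2 were higher (3.33%, against 28.0%). *are1* was lower in all 6 mutants, and *ptl3* in all but *ies2∆* (-0.24, SE 0.18). *cut6* and *fas1* were lower in all but *arp42∆*, where the values were -0.44 (SE 0.26) and -0.41 (SE 0.25), not called. *plh1* was called in *arp42∆* (-0.36, SE 0.16, adjusted p = 0.04532) and, in the other direction, in *ies2∆* (0.37, SE 0.16, adjusted p = 0.04032). The *plh1* call was lost in *arp42∆* without any of 5 of the 6 libraries, and in *ies2∆* without any of 3, with 0.08 left without T1D B. *dga1* was lower in *arp42∆* (-0.34, SE 0.12, adjusted p = 0.01583) and was not called in any other mutant. Without the libraries in doubt 30 tests were lower and 1 higher. The calls of *cut6* and *fas1* in both *hht2∆* and *ies2∆* were then lost, as were those of *are1* (-0.78), *are2*, *fas2* and *plh1* in *ies2∆*. Only T1D C then stood for *ies2∆* at T1D, so that comparison has no replicate. *are1* in *arp42∆* (-0.61, adjusted p = 0.03661) was lost without any of 5 of the 6 libraries. By the spike-ins 40 of 60 were lower (66.7%, against 65.3% of all gene tests), which were all 10 genes in *pht1∆*, *iec1∆*, *asp1∆* and *arp42∆*.

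In *ies2∆* at T1D 5 of the 10 genes were higher than in *smt0* on the relative scale (21.5% of all genes). *ptl3* rose by 0.90 (SE 0.19, adjusted p = 0.0001022), *ptl2* by 0.70 (SE 0.18, adjusted p = 0.001484), *ptl1* by 0.61 (SE 0.19, adjusted p = 0.008154), *dga1* by 0.54 (SE 0.12, adjusted p = 0.0003123) and *plh1* by 0.42 (SE 0.16, adjusted p = 0.02594), so all 3 lipases and both triacylglycerol synthesis genes were among them. T1D B stood apart from A and C in this group: it read 67.0 for *plh1* against 38.9 and 40.02, 53.4 for *ptl3* against 33.5 and 30.7, 11.4 for *are2* against 41.9 and 44.1, and 164 for *fas1* against 326 and 347. Without the libraries in doubt *ptl1* (0.82), *ptl2* (0.69), *dga1* (0.65) and *ptl3* (0.54) passed the threshold and *plh1* (0.13) did not, with T1D C as the only *ies2∆* library, so these values have no replicate. Fitting only the groups compared, with the libraries in doubt kept, lost the relative-scale calls of *plh1*, *dga1*, *ptl1* and *ptl3* and kept that of *ptl2*. None of the 10 was called in *ies2∆* at T1D on the ERCC scale, with values between 0.11 (*are2*) and 1.60 (*ptl3*). These rest on the shift of 3.70 log2 units given to the *ies2∆* libraries: with none, or with the shift on the T0 libraries only, all 10 were lower, between -3.59 (*are2*) and -2.10 (*ptl3*). The paper reports most genes as lower in *ies2∆* than in wild type at T1D, which the shift used here does not reproduce.

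In *asp1∆* at T1W calls among the 10 genes went both ways. On the relative scale 3 were higher (27.1% of all genes) and 6 lower (28.2% of all genes). *ptl2* read 101.6, 117 and 105 CPM per kb in *asp1∆*, against 41.9, 47.1 and 58.0 in *smt0*, and rose by 1.14 (SE 0.19, adjusted p = 6.699e-07). *are2* read 60.4, 64.4 and 60.1 in *asp1∆*, against 33.6, 36.8 and 24.3 in *smt0*, and rose by 0.97 (SE 0.27, adjusted p = 0.001951), and *ptl1* rose by 0.54 (SE 0.20, adjusted p = 0.0192). The synthesis genes went the other way. *fas2* read 132, 122 and 114 in *asp1∆*, against 199, 276 and 271 in *smt0*, and fell by 1.02 (SE 0.28, adjusted p = 0.001826). *cut6* read 135, 126 and 113 in *asp1∆*, against 192, 266 and 242 in *smt0*, and fell by 0.91 (SE 0.26, adjusted p = 0.002852). None of these 4 groups overlapped with *smt0*. *plh1* fell by 0.71 (SE 0.16, adjusted p = 0.0002163), and *fas1* (-0.58), *are1* (-0.71) and *dga1* (-0.31) were called at adjusted p between 0.03074 and 0.04321, each lost without any of at least 4 of the 6 libraries. With ERCC scaling *ptl2* (-0.25), *are2* (-0.68) and *ptl1* (-0.95) had the opposite sign and were not called in *asp1∆* at T1W, while the 6 genes that were lower on the relative scale were lower there too.

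At T2W *asp1∆* kept this division in part, with 3 genes higher (26.9% of all genes) and 2 lower (25.7%). *ptl2* read 75.4, 74.6 and 85.2 CPM per kb in *asp1∆*, against 50.5, 38.5 and 42.4 in *smt0*, and rose by 0.84 (SE 0.19, adjusted p = 0.0001578). *are2* rose by 0.94 (SE 0.27, adjusted p = 0.003348) and *ptl1* by 0.63 (SE 0.20, adjusted p = 0.007932), while *fas2* fell by 0.85 (SE 0.28, adjusted p = 0.009411) and *plh1* by 0.85 (SE 0.16, adjusted p = 1.891e-05). The *fas2* call was lost without *smt0* T2W B, and that of *ptl1* without any of 3 libraries. *ptl2*, *are2* and *plh1* were called in *asp1∆* at both T1W and T2W when any single library was left out. The ERCC scale again gave *ptl2* (-0.50), *are2* (-0.45) and *ptl1* (-0.77) the opposite sign in *asp1∆* at T2W, with no call.

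In *iec1∆* at T2W *ptl1* and *ptl2* were higher and the synthesis genes lower on the relative scale. There 2 genes were higher (17.0% of all genes) and 4 lower (17.1%). *ptl1* read 44.3, 30.3 and 46.2 CPM per kb in *iec1∆*, against 29.1, 19.4 and 18.3 in *smt0*, and rose by 0.86 (SE 0.20, adjusted p = 0.0008307), and *ptl2* rose by 0.65 (SE 0.19, adjusted p = 0.005293). *fas2* read 94.4, 169 and 101 in *iec1∆*, against 169, 298 and 224 in *smt0*, and fell by 0.92 (SE 0.28, adjusted p = 0.008297), *cut6* fell by 0.79 (SE 0.26, adjusted p = 0.01572), *fas1* by 0.61 (SE 0.25, adjusted p = 0.0498) and *plh1* by 0.51 (SE 0.16, adjusted p = 0.01149). The call of *ptl1* held without any single library, and each of the other 5 was lost without any of 2 to 4 of them, *smt0* T2W B or C among these. Fitting only the groups compared lost every one of these calls, that of *ptl1* included. The call of *fas1* was lost under 6 of 8 other settings. In *pht1∆* 1 gene was higher (8.10% of all genes), *ptl1* (0.67, SE 0.20, adjusted p = 0.01736), and 1 lower (9.50%), *plh1* (-0.49, SE 0.16, adjusted p = 0.02738), and leaving out any of 4 or 5 libraries lost them. With ERCC scaling *ptl1* was at -0.37 in *iec1∆* and -0.47 in *pht1∆* and *ptl2* at -0.55 in *iec1∆*, with no call.

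The libraries labelled *hht2∆* gave 3 genes higher (25.3% of all genes) and 3 lower (21.7%) at T2W, and these calls include replicates A and C, in which the *hht2* gene was at 36.6% and 14.6% of *smt0*. *cut6* read 71.8 and 55.9 CPM per kb in A and C and 229 in B, where *hht2* was at 0.716%, against 146, 228 and 181 in *smt0*. *fas2* likewise read 67.9 and 57.1 in A and C and 217 in B. With all 3 libraries *fas2* was at -1.02 (SE 0.28, adjusted p = 0.002501), *plh1* at -0.67 (SE 0.16, adjusted p = 0.0005237), *cut6* at -0.64 (SE 0.26, adjusted p = 0.04054), *ptl1* at 0.82 (SE 0.20, adjusted p = 0.0006464), *ptl2* at 0.82 (SE 0.18, adjusted p = 0.0002782) and *are1* at 0.62 (SE 0.27, adjusted p = 0.04924). With B as the only *hht2∆* library, and so without a replicate, none of the 6 passed the threshold: *fas2* was at -0.07, *plh1* at -0.47, *cut6* at 0.32 (adjusted p = 0.6059), *ptl1* at 0.24, *ptl2* at 0.50 and *are1* at 0.04. Their ERCC values of -0.36 for *ptl1*, -0.33 for *ptl2* and -0.60 for *are1* had the opposite sign and were not called.

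In *arp42∆* at T1W 2 genes were higher on the relative scale (5.21% of all genes), *are1* (0.87, SE 0.27, adjusted p = 0.02649) and *ptl3* (0.62, SE 0.20, adjusted p = 0.03312). For both, replicates A and B were high and C was not, with 25.6, 25.4 and 14.4 CPM per kb for *are1*, against 8.83, 11.8 and 14.5 in *smt0*. Each call was lost without any of 4 or 5 libraries, while the ERCC scale gave -2.57 for *are1* and -3.02 for *ptl3*.

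On the ERCC scale the mutants followed the shift of the whole table. At T1D 40 of 60 member tests were lower than in *smt0* (66.7%, against 63.9% of all gene tests), all 10 genes in *pht1∆*, *iec1∆*, *asp1∆* and *arp42∆*. The changes ran between -7.19 (*are2*) and -5.68 (*ptl2*) in *arp42∆*. They ran between -4.72 (*are2*) and -3.82 (*fas1*) in *asp1∆*, between -3.91 (*are2*) and -3.34 (*ptl2*) in *iec1∆* and between -3.33 (*cut6*) and -2.89 (*ptl2*) in *pht1∆*. At T1W 16 of 60 were lower (26.7%, against 23.7%), all 10 genes in *arp42∆* and 6 in *asp1∆*, and 10 were higher (16.7%, against 16.9%), all in *ies2∆*. The 10 higher calls in *ies2∆* rest on the shift given to its libraries: with none, or with the shift on its T0 libraries only, there were 0. The paper reports few genes changed in *ies2∆* at T1W and most genes lower at T1D. The count of 40 at T1D holds no *ies2∆* call, and under those other shifts all 10 genes were lower in *ies2∆* at T1D. At T2W 16 of 50 were lower (32%, against 28.0%), the 10 of *arp42∆* and 3 each in *asp1∆* and the libraries labelled *hht2∆*.

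The other lipid genes around these enzymes were read from 3 lists. Of 8 acyl chain genes (desaturation, elongation, activation), 6 were lower and 1 higher in *smt0* at T1D on the relative scale, with a median of -0.84 against 0.02 for all genes, of which 26.9% were lower and 27.1% higher. The largest falls were those of the elongation genes *elo2* (-1.39) and *tsc13* (-1.301), and the desaturase gene *ole1* was higher (0.56). Of 13 glycerophospholipid genes 7 were lower and 3 higher, with a median of -0.63, led by *cho2* (-2.13) and *cho1* (-1.45) on the lower side and *psd2* (0.77) and *spo7* (0.53) on the higher. Of 7 regulator genes 3 were higher, led by *sre1* (1.19) and *sre2* (0.79), which encode sterol-regulated transcription factor homologues, and 1 was lower, *cbf11* (-0.51). By the spike-ins 0 genes of the 3 lists were higher at T1D (2.24% of all genes), and 6 acyl chain genes, 4 glycerophospholipid genes and 0 regulators were lower (21.4% of all genes). In *asp1∆* at T2W 6 of 8 acyl chain genes were higher than in *smt0* on the relative scale (26.9% of all genes higher, 25.7% lower), led by *tsc13* (1.75) and *elo2* (1.00), and *bpl1* was lower (-1.09). In the same comparison 8 of 13 glycerophospholipid genes were higher, led by *psd2* (1.21) and *pis1* (1.04), and 2 lower, *psd3* (-1.33) and *spo7* (-1.16), while 0 of 7 regulators were higher and 3 lower, led by *sre1* (-1.10) and *cbf12* (-0.99). With ERCC scaling 0 genes of the 3 lists were higher in *asp1∆* at T2W (1.76% of all genes), and 1 acyl chain gene, 3 glycerophospholipid genes and 5 regulators were lower (35.7% of all genes).

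The likeness of patterns was taken as Pearson's r over the 27 group means of log2 levels on the relative scale, as a description. *cut6* was most like *gus1* (r = 0.975), *fas1* (0.97) and *ogm1* (0.949), and *fas1* most like *cut6*, *grs1* (0.94) and *ala1* (0.939), so the carboxylase and the synthase subunit were second and first in each other's lists among 6608 genes. *gus1*, *grs1* and *ala1* encode aminoacyl-tRNA synthetases. *fas2* was most like *cut6* (0.92), *far8* (0.911) and *pgi1* (0.904). Outside the synthesis genes the nearest genes were others. *ptl2* was most like *leu3* (0.808), *spe1* (0.79) and *ser3* (0.787), *ptl1* like SPBC17D1.05 (0.852), *tom70* (0.84) and *ilv1* (0.839), and *ptl3* like *tif213* (0.929), *apm3* (0.927) and *prp43* (0.922). *are1* was most like SPAC4A8.06c (0.913), *rrp3* (0.894) and *syo2* (0.893), *are2* like *txl1* (0.931), *vrg4* (0.924) and SPAC17A2.02c (0.921), *dga1* like *erg24* (0.904), SPBC29B5.04c (0.854) and SPCC4B3.13 (0.853), and *plh1* like *aip1* (0.852), *dbp8* (0.821) and SPBC409.19c (0.813). Among the 10 genes themselves the highest values were between the synthesis genes (0.897 to 0.97), *ptl1* and *ptl2* had 0.771, and the lowest was that of *plh1* with *ptl2* (-0.205).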

How the data were processed

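RNA was depleted of rRNA, spiked with ERCC transcripts in proportion to vegetative cell number and sequenced from stranded libraries. Per the labels and the methods, the authors demultiplexed with bcl2fastq 2.20.0.422, aligned with STAR 2.7.9a to ASM294v2 and the ERCC sequences and counted reads on annotated exons with featureCounts 1.5.1. They deposited whole read counts of genes and of ERCC transcripts, without normalization. No sample column was left out. ChIP-seq samples of the series were not analysed here.

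Counts were fitted in R 4.3.3 with edgeR 4.0.16 (quasi-likelihood test, 81 libraries, 27 groups, no block), for genes above 1 CPM in at least 3 libraries. On the ERCC scale the library size was the summed spike-in count, multiplied by a TMM factor from those counts. All *ies2∆* libraries were shifted together by 3.70 log2 units, so that the ratio of gene to ERCC counts at T0 equalled that of the first batch. On the relative scale it was the summed gene count, multiplied by a TMM factor from the gene counts. Adjustment was done within each comparison over all 6608 tested genes. Standard errors are the log2 change divided by the square root of F. Artificial counts holding known changes were put through the same fits. On the ERCC scale 0 of 100 genes changed 2-fold were recovered. Of 100 changed 4-fold, 6 were recovered in *smt0* at T1D against T0 and 16 in *arp42∆* against *smt0* at T1D. On the relative scale these comparisons recovered 61 and 66 at 2-fold, then 90 and 88 at 4-fold. The difference of changes in *arp42∆* recovered 40 and 79. In the artificial counts 6408 of 6608 genes were left unchanged. Far more genes were called in the same ERCC comparisons of the real data, which makes the adjusted threshold easier to pass. The shares recovered need therefore not hold for the real data. A gene without a call on the ERCC scale may still have changed by such amounts.

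All 10 genes are named. Changes with SE and adjusted p are printed for genes past the threshold on the relative scale or, in *smt0*, on the ERCC scale, with ranges or plain values otherwise. Lists give counts and at most 2 genes in each direction. The genes, lists and motifs were chosen with earlier results of these data known. Alternatives were other tests (edgeR's likelihood ratio test, DESeq2 1.42.0), filters, size factors, sample sets, blocks, *ies2∆* shifts and single libraries left out. The set without the 8 libraries in doubt was chosen after seeing the data. Promoter sequences are from RefSeq (ASM294v3), in which all 10 genes matched by name. The T0 sample was taken from a culture before the rest was starved, but the sources used here do not say that a letter marks the same culture, and the letters were not treated as pairs: deviations of all 3 letters correlated above 0.1 in 0 of 20 pairs of groups within strains and in 1 of 23 pairs of mutant and *smt0* groups. Over all genes together, replicate cultures differed by more than counting error in every group. For single genes with few reads, such as *are1*, counting error need not be small beside the spread between cultures.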

Additional observations from a re-analysis of the deposited data

Results flagged for a closer look

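Changes from T0 to T1D that differed between a mutant and *smt0* on the relative scale were found for *ptl2* and *ptl1*, by a test of the difference itself (edgeR, interaction contrast). For *ptl2* the difference was 1.82 on the log2 scale in *arp42∆*, where the change was 0.41, a call lost with either replicate block and without *arp42∆* T0 A or T1D A, against -1.41 in *smt0*. It was 1.14 in the libraries labelled *hht2∆* and 0.95 in *asp1∆*. For *ptl1* the difference was 0.84 in *arp42∆*, where the change was -0.02 against -0.86 in *smt0*. The difference of *ptl2* in *arp42∆* itself was called under every alternative and with any single library left out, and the other 3 were each lost without 1 to 3 libraries. All 4 were taken against the same *smt0* libraries and are not independent. They are changes relative to the rest of the RNA: on the ERCC scale the differences in *arp42∆* and *asp1∆* are negative. Groups of 3 cultures are too small for a test of single outlying libraries.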

How the results depend on the processing

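Of 168 counts of called genes under other settings 158 stayed within 1.5 times the reported count, as did 296 of 312 with a library left out. Of 1108 changes of called genes under other settings 1028 kept their call, 79 lost it and 1 reversed, and with a library left out 671 of 828 kept it and 157 lost it.
Fitting only the groups compared moved the counts most: for mutants against *smt0* it gave 24 for 0 at T0 and 0 for 16 at T2W on the ERCC scale, and 11 for 5 at T0, 2 for 6 at T1D and 6 for 19 at T2W on the relative scale. Fewer samples then set the spread. On the ERCC scale at T0, DESeq2 and the replicate block within strain each gave 1 for 0, and leaving the *ies2∆* libraries without a shift gave 10. At T1W no shift, or a shift of its T0 libraries only, gave 16 for 26.
The reversed change was *cut6* in *hht2∆* at T2W, 0.32 without the libraries in doubt, for -0.64.
With a library left out, counts in *smt0* on the ERCC scale were 0 to 10 at T1D (reported 7) and 10 at T1W and T2W. On the relative scale they were 6 to 8, 6 to 8 and 7 to 9 at T1D, T1W and T2W (reported 8 each). For mutants on the ERCC scale they were 0 at T0, 40 to 44 at T1D, 20 to 28 at T1W, 6 to 29 at T2W (6 without *arp42∆* T2W A, 29 without *smt0* T2W C) and 40 against their own T0. On the relative scale they were 2 to 6 at T0 (2 without *smt0* T0 B), 5 to 9 at T1D, 6 to 13 at T1W (6 without *smt0* T1W B), 9 to 21 at T2W (9 without *smt0* T2W B), 35 to 39 against their own T0 and 2 to 6 for the difference from *smt0* (2 without *smt0* T1D B).
The replicate block, by letter, gave 17 and within strain 18 for 19 on the relative scale at T2W, and 10 within strain for 7 in *smt0* at T1D on the ERCC scale. Whether a letter marks the same culture at different times is not given in the sources used here, and the own letter correlated best in 3 of 20 pairs of groups within strains and in 2 of 23 pairs of mutant and *smt0* groups.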
